A study of Mus musculus with 19 samples.

Results

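H3K27ac peaks at gene promoters were examined in microglia, the resident macrophages of the brain, in the lists of regions that changed between groups of mice. A peak was taken as a promoter peak where its deposited annotation began with promoter-TSS, the label for a region whose centre lies close to an annotated transcription start. Of 14035 listed peaks over 5 comparisons, 684 carried this label (4.87%). These 684 entries covered 615 distinct regions by coordinates and named 449 nearest genes. Of the entries, 616 lay nearest to a protein-coding gene, 67 to a non-coding RNA gene and 1 to a snoRNA gene. Peak centres lay between -989 and 872 bp from the stated start, negative meaning upstream, with a median of -163.5 bp, and 515 of 684 were upstream.

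Of the 19 samples, 10 were H3K27ac and 9 input, and the 8 H3K27ac libraries of 4 groups with 2 replicates each were used. KO mice carried PRMT1fl/fl; cx3r1cre-ert2, so that loss of the arginine methyltransferase PRMT1 was induced by tamoxifen in cells that express Cx3cr1, and WT mice carried the floxed alleles alone (labelled PRMT1Ifl/fl), all on C57BL/6. KO CD11c-low, WT CD11c-high and WT CD11c-low microglia came from mice fed 0.2% cuprizone for 5 weeks, a chelator of copper under which oligodendrocytes die and myelin is lost, and were sorted by CD45, CD11b and the level of CD11c. WT basal microglia came from mice on a normal diet, with a label time of 11 weeks, and were sorted by CD45 and CD11b without a CD11c gate. KO CD11c-high cells were not among the groups, KO basal H3K27ac was not analysed here, and the Cx3cr1 driver also acts in other Cx3cr1-expressing macrophages. The paper's methods describe the 2 replicates per condition as independent biological replicates, and the labels do not say how many animals each held.

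Acetylation of histone H3 at lysine 27 marks active promoters and enhancers, and at a promoter it flanks the nucleosome-free start site and generally accompanies transcription of the gene. In demyelinated tissue microglia take up myelin debris, and they are known to switch on lipid handling, antigen presentation, interferon-stimulated genes and the integrin CD11c, which is encoded by Itgax. Many regulatory changes of macrophages lie in distal enhancers, while promoters of broadly used genes stay acetylated across states.

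The promoter sequences below are shown because the results turn on their genes: Klrb1b, Klrb1a, Stra6l and St8sia6 recurred across comparisons, Gclm was higher in KO cells against both WT cuprizone groups, Itgax encodes the gate itself, Plin2 coats lipid droplets, and Ifi207, Tgtp2, Cybb and Mroh2a hold a match to an interferon response element. Each window runs from 250 bases before to 50 after a RefSeq start in GRCm38.p6 and is written 5′ to 3′ on the strand of the gene. Windows were found for 497 of 684 entries and 324 of 449 genes. Capitals mark matches, searched on both strands, to the antioxidant response element (TGACNNNGC) in Gclm and Klrb1a, the GC box (GGGCGG) in Klrb1b, Stra6l and St8sia6, the AP-1 site (TGANTCA) in Itgax, the E-box (CACGTG) in Plin2 and the interferon response element (GAAANNGAAA) in Ifi207, Tgtp2, Cybb and Mroh2a. Gclm lay at chr3:122245307-122245606 (plus strand), Klrb1b at chr6:128826266-128826565 (minus), Klrb1a at chr6:128622885-128623184 (minus), Stra6l at chr4:45848697-45848996 (plus), St8sia6 at chr2:13793471-13793770 (minus) and Itgax at chr7:128129300-128129599 (plus). Plin2 lay at chr4:86670010-86670309 (minus), Ifi207 at chr1:173741760-173742059 (minus), Tgtp2 at chr11:49064163-49064462 (minus), Cybb at chrX:9469275-9469574 (minus) and Mroh2a at chr1:88226770-88227069 (plus). The Cybb window holds 3 separate matches and the other windows 1 each.
Gclm: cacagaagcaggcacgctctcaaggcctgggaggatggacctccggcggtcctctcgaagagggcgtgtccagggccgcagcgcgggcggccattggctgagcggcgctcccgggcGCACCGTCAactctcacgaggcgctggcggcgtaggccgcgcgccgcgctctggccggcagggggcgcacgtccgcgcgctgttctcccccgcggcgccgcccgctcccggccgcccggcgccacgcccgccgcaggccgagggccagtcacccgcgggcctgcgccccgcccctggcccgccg
Klrb1b: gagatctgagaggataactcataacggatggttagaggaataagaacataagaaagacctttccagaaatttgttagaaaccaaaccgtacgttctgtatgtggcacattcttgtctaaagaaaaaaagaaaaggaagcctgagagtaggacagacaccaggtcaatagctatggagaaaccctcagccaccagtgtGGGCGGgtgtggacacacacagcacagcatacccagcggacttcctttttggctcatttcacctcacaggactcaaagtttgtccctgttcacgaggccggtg
Klrb1a: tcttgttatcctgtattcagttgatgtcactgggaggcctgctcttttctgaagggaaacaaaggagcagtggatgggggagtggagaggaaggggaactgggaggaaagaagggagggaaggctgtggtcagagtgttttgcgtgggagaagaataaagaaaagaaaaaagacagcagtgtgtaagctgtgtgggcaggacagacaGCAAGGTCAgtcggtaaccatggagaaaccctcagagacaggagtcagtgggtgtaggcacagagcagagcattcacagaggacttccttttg
Stra6l: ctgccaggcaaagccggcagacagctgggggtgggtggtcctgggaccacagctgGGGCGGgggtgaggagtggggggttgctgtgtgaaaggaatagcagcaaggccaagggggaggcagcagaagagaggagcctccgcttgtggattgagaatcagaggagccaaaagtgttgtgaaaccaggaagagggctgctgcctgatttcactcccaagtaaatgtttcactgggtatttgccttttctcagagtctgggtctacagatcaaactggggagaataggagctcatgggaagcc
St8sia6: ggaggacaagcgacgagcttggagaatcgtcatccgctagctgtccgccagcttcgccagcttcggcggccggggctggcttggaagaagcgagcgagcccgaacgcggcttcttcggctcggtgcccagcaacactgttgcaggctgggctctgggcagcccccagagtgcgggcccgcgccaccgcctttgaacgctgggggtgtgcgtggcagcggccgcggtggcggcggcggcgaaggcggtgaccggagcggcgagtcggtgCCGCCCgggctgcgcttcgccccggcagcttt
Itgax: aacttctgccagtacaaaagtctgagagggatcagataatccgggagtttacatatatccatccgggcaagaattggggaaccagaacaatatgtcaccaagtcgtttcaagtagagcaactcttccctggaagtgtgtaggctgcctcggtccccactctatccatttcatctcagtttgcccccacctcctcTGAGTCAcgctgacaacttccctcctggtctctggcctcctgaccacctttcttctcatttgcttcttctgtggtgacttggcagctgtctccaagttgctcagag
Plin2: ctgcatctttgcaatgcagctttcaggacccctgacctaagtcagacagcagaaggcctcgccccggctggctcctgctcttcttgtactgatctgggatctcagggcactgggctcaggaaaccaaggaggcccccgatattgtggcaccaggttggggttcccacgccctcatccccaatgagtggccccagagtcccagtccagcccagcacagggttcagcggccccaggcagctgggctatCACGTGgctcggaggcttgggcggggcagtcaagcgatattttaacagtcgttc
Ifi207: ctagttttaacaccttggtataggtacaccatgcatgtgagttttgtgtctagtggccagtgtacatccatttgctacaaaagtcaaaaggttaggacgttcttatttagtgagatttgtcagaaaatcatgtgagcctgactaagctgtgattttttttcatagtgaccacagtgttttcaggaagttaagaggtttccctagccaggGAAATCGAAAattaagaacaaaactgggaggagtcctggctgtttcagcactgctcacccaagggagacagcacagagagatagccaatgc
Tgtp2: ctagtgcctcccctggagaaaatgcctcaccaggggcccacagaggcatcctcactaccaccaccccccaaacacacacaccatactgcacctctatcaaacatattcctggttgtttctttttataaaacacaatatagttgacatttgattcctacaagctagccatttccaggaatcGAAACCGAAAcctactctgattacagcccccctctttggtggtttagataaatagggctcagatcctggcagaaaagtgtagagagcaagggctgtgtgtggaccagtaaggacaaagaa
Cybb: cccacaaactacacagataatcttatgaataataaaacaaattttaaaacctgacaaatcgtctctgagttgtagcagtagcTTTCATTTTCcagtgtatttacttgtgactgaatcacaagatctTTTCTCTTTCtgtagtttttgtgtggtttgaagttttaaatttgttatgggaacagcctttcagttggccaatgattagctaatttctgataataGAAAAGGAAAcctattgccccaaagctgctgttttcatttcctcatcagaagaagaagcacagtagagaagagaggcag
Mroh2a: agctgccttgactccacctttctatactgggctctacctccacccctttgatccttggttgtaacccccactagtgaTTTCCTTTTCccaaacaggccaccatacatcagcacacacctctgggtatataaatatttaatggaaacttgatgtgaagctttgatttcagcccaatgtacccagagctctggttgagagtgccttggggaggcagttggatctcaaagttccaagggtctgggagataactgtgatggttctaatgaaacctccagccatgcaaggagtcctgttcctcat

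Of the 32851 RefSeq promoter windows of this length, 3.44% held the interferon response element, 35.7% the GC box, 12.4% the antioxidant response element, 7.81% the AP-1 site and 7.15% the E-box. Among promoter peaks with a window, the interferon response element was found in 16 of 164 (9.76%) that were higher in WT CD11c-low than in WT basal cells and in 2 of 24 that were lower. In the same way it was found in 17 of 220 (7.73%) that were higher in WT CD11c-high than in WT basal cells and in 3 of 55 that were lower. The GC box was found in 51.8% of the higher and 58.3% of the lower promoters in CD11c-low cells, and in 50.5% of the higher and 52.7% of the lower ones in CD11c-high cells. The AP-1 site was in 15 of 164 higher and 0 of 24 lower windows in CD11c-low cells, and in 22 of 220 higher and 2 of 55 lower windows in CD11c-high cells. For the antioxidant response element the counts were 17 of 164 (10.4%) and 3 of 24 in CD11c-low cells, and 20 of 220 (9.09%) and 9 of 55 in CD11c-high cells. For the E-box they were 15 of 164 and 3 of 24, and 25 of 220 and 8 of 55. A kappa-B site (GGGANNNNCC) was in 20.7% of all windows, in 31.7% of higher and 50% of lower windows in CD11c-low cells, and in 29.5% of higher and 41.8% of lower windows in CD11c-high cells. Matches of different motifs can share bases: GC box and kappa-B matches overlapped in 520 windows, and AP-1 and antioxidant matches in 149. CpG-rich starts, with an observed over expected CpG ratio of at least 0.6 within 500 bp of the start, were 34.4% of all windows and between 42.7% and 50% of those of the peaks that changed against WT basal. These shares describe letters in windows and were not tested.

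Values are the authors' normalized tag counts per peak, scaled within each comparison, so they are compared only within a comparison unless a common scale is named. Relative depth was 56.2% and 85.1% of the mean library in the WT basal libraries and between 100.1% and 117.6% in the 6 cuprizone libraries. WT basal values therefore rest on fewer reads. Per listed peak, WT basal held a median of 29 and 36 reads in both comparisons that use them. Most of those peaks were listed as lower in WT basal, so these medians reflect the listing as well as depth. PCR reads without molecular identifiers carry the counting error of such numbers and more. Every listed peak had been listed by the authors because it differed in that comparison, so the limma values below describe these peaks and the share of calls cannot separate promoters from the rest. In the RNA tables, 6 of the 7 microglia markers were found and all 6 ranked in the top 25% of genes, with median percentiles from 99.6 to 99.9. Markers of other cells were in the tables too: per table, 4 to 5 of 16 oligodendrocyte, 3 to 5 of 15 monocyte and border macrophage, 1 to 3 of 12 endothelial, 1 to 2 of 12 astrocyte, 0 to 1 of 15 lymphocyte and 0 of 12 neuron markers ranked in the top 25%. In the KO CD11c-low and WT CD11c-low table the oligodendrocyte gene Cnp ranked at the 93.6 percentile, S100a9 at the 93.7 and Stab1 at the 95.9. The part of such cells in the results was not tested. No promoter peak of a neuron, oligodendrocyte, astrocyte or monocyte marker was listed in any comparison. Peaks of other annotation were listed at some of them. In WT CD11c-high against WT basal, 2 of 16 oligodendrocyte genes had a higher and 2 a lower one. In the same comparison 4 of 12 astrocyte genes had a higher and 1 a lower one. Of 15 monocyte and border macrophage genes, 2 had a higher and 4 a lower one, and of 12 neuron genes 0 had either. In sorted bulk samples, fewer cells of a type and less acetylation per cell cannot be told apart.

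KO mice carried the Cx3cr1 driver and WT mice did not, so loss of PRMT1 and the driver itself cannot be told apart. Within the CD11c-low gate, KO and WT cells differed at 8 promoter peaks of 271 listed. In KO CD11c-low cells 4 were higher and 4 were lower than in WT CD11c-low cells, whereas 222 of all listed peaks were called higher (81.9%) and 49 lower (18.1%). All 8 passed an adjusted p of 0.05 with limma, as did 100% of the listed peaks, and in all 8 the libraries of the groups did not overlap, again as in 100% of the listed peaks. TMM scaling factors were also computed over the listed peaks of each comparison. Because those peaks had been chosen as changed, such factors centre the list and shift its peaks by nearly the same amount, so a value under them tells how a peak stood relative to the other listed peaks and not whether its change was stable. Here they shifted the median log2 difference by -1.27, and the called promoter peaks were 1 higher and 4 lower.

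The lower promoters belonged to Myo18b, Grk3, Klrb1b and Pacsin1. At Myo18b, which encodes an unconventional myosin known from muscle, KO CD11c-low libraries had 17.6 and 10.7 tags, against 60.9 and 62.0 in WT CD11c-low. The log2 difference was -2.08 ± 0.30 (SE, adjusted p = 0.00299). Grk3, a kinase that desensitises G protein-coupled receptors, had 100.3 and 97.5 tags in KO cells, against 262 and 259 in WT cells, a log2 difference of -1.39 ± 0.23. Klrb1b encodes an inhibitory lectin-like receptor best known from natural killer cells, and its peak (chr6:128825871-128826898) covered the window printed above. It had 43.0 and 42.9 tags in KO cells, against 98.4 and 109 in WT cells (log2 difference -1.25 ± 0.23, adjusted p = 0.00469). Pacsin1, an F-BAR protein of membrane trafficking, had 76.0 and 83.9 tags in KO cells and 213 and 144 in WT cells, and here the WT libraries were the ones that spread. Without WT CD11c-low replicate 1 the Pacsin1 difference was -0.84 with an adjusted p of 0.0795.

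The higher promoters belonged to Syne1, Gclm, Il18bp and Gm15413. Syne1, which encodes the nuclear envelope protein nesprin-1, had 29.8 and 22.4 tags in KO cells, against 0.94 and 2.00 in WT cells, a log2 difference of 3.48 ± 0.31 (adjusted p = 0.0013). The WT libraries held 3 reads there in all, and the ratio of pooled reads was 17.8 with an exact 95% interval of 5.76 to 89.3, which covers counting error only. That peak lay at an internal start, 355985 bp downstream of the first annotated start of the gene, and it was called as a peak in KO cells only. Gclm encodes the modifier subunit of glutamate-cysteine ligase, which makes the precursor of glutathione. Its peak had 289 and 253 tags in KO cells, against 109.7 and 117 in WT cells, with a log2 difference of 1.25 ± 0.23, or -0.03 relative to the listed peaks. The centre of that peak lay 903 bp upstream of the start, within the annotated gene Gm46822, while the peak reached over the Gclm start. Il18bp, a secreted inhibitor of interleukin-18, had 797 and 769 tags in KO cells, against 387 and 321 in WT cells, with a log2 difference of 1.15 ± 0.24, or -0.13 relative to the listed peaks. Gm15413, a non-coding RNA gene inside Tenm4, had 424 and 448 tags in KO cells, against 220 and 186 in WT cells, with a log2 difference of 1.10 ± 0.24, or -0.18 relative to the listed peaks. Without WT CD11c-low replicate 2, adjusted p was 0.0586 for Gm15413 and 0.0567 for Il18bp. Gene lists for interferon, MHC, lipid, lysosome, NF-kB and microglial states held no gene with a promoter peak in this comparison.

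**Figure D1:**
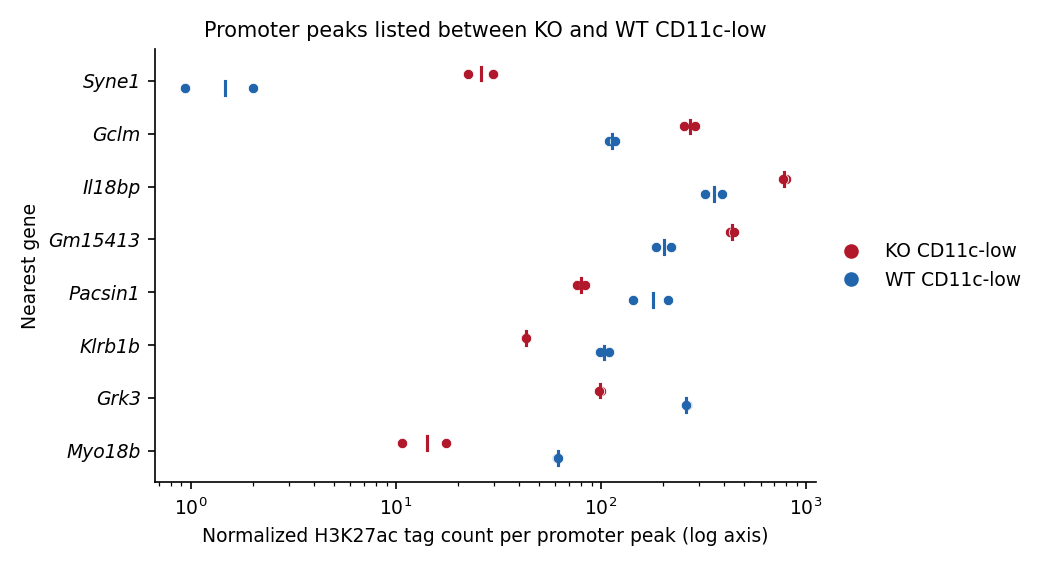
Normalized H3K27ac tag counts (log axis) at the 8 promoter peaks of the KO CD11c-low and WT CD11c-low comparison, 1 point per library with 2 libraries per group. Syne1 stands apart, with 29.8 and 22.4 tags in KO and 0.94 and 2.00 in WT cells, while the other peaks differ by about 1 to 2 on the log2 scale.

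KO CD11c-low cells were also set against WT CD11c-high cells, a comparison in which genotype and gate change together and cannot be told apart. Of 909 listed peaks 28 were promoter peaks, 14 higher and 14 lower in KO CD11c-low cells, beside 526 higher and 383 lower over all listed peaks, of which limma called 57.2% of the list higher and 42.1% lower. All 28 passed limma's threshold, beside 99.3% of the listed peaks. With TMM factors, which shifted the median log2 difference of the listed peaks by -0.42, 13 promoter peaks were called higher and 14 lower.

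The largest ratios among the lower promoters were at Klrb1a, St8sia6, Klrb1b, Akap5, Atp8b1 and Stra6l. Klrb1a, a lectin-like receptor gene beside Klrb1b, had 10.8 and 13.3 tags in KO CD11c-low, against 105 and 107 in WT CD11c-high (log2 difference -3.04 ± 0.19, adjusted p = 0.00177). St8sia6, a sialyltransferase that adds sialic acid to glycans, had 36.6 and 31.4 tags in KO CD11c-low, against 189 and 245 in WT CD11c-high (log2 difference -2.63 ± 0.21). Klrb1b had 50.6 and 52.4 tags in KO CD11c-low, against 189 and 197 in WT CD11c-high, and Stra6l, a receptor for retinol-binding protein, had 109.8 and 131 in KO CD11c-low, against 385 and 394 in WT CD11c-high. The kinase anchor gene Akap5 had 40.9 and 45.7 tags in KO CD11c-low, against 169.6 and 148 in WT CD11c-high. At each of these genes the libraries of the groups did not overlap, as in 100% of the listed peaks of this comparison. Il1rn, the interleukin-1 receptor antagonist, had 20.5 and 10.5 tags in KO CD11c-low, against 51.2 and 46.1 in WT CD11c-high, and was the only member of the 47-gene NF-kB, cytokine and chemokine list with a promoter peak here. Fabp3, a fatty acid binding protein, had 49.5 and 55.3 tags in KO CD11c-low, against 103 and 121 in WT CD11c-high, and was the only member of the 36-gene lipid list. Il1rn and Fabp3 made up 2.13% and 2.78% of their lists. Over all 24715 genes with an RNA value, 14 had a lower promoter peak here (0.0566%). Tgtp2, an interferon-inducible GTPase with a near-identical copy, had 51.7 and 30.5 tags in KO CD11c-low, against 99.2 and 114 in WT CD11c-high, so its reads may belong to either copy. The remaining lower promoters were those of Grk3, Kbtbd12, Sec14l2, Minar1, Atp8b1 and Mir6972, with log2 differences from -1.82 at Atp8b1 to -1.06 at Mir6972 and Minar1. The Mir6972 peak had its centre inside Cfb, the gene of complement factor B.

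Among the higher promoters Camk2n1, an inhibitor of the kinase CaMKII, had 258 and 314 tags in KO CD11c-low, against 77.9 and 73.8 in WT CD11c-high (log2 difference 1.90 ± 0.19, adjusted p = 0.00196). Treml4, a receptor of myeloid cells, had 333 and 348 tags in KO CD11c-low, against 93.9 and 105 in WT CD11c-high. Gclm was higher here too, with 282 and 248 tags in KO CD11c-low, against 91.7 and 99.7 in WT CD11c-high (log2 difference 1.46 ± 0.18). Tlr5, the flagellin receptor, had 262 and 250.5 tags in KO CD11c-low, against 90.7 and 96.0 in WT CD11c-high. In these 4, as in 100% of the listed peaks of this comparison, the libraries of the groups did not overlap. The other higher promoters were those of Sema4b, Pde2a, Slc36a1os, Unc119, Gramd1b, Slc22a4, 9930012K11Rik, Kank2, Pacsin2 and Sgsh, with log2 differences from 1.05 at Sgsh to 1.66 at Sema4b. In 5 of the 14 higher peaks (Sema4b, Pde2a, Gramd1b, Pacsin2 and Unc119) the start lay over 500 bp downstream of the first annotated start, and in 0 of the 14 lower ones. The peak of Sgsh, a lysosomal sulfamidase, shares its promoter region with Slc26a11 on the opposite strand.

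**Figure D2:**
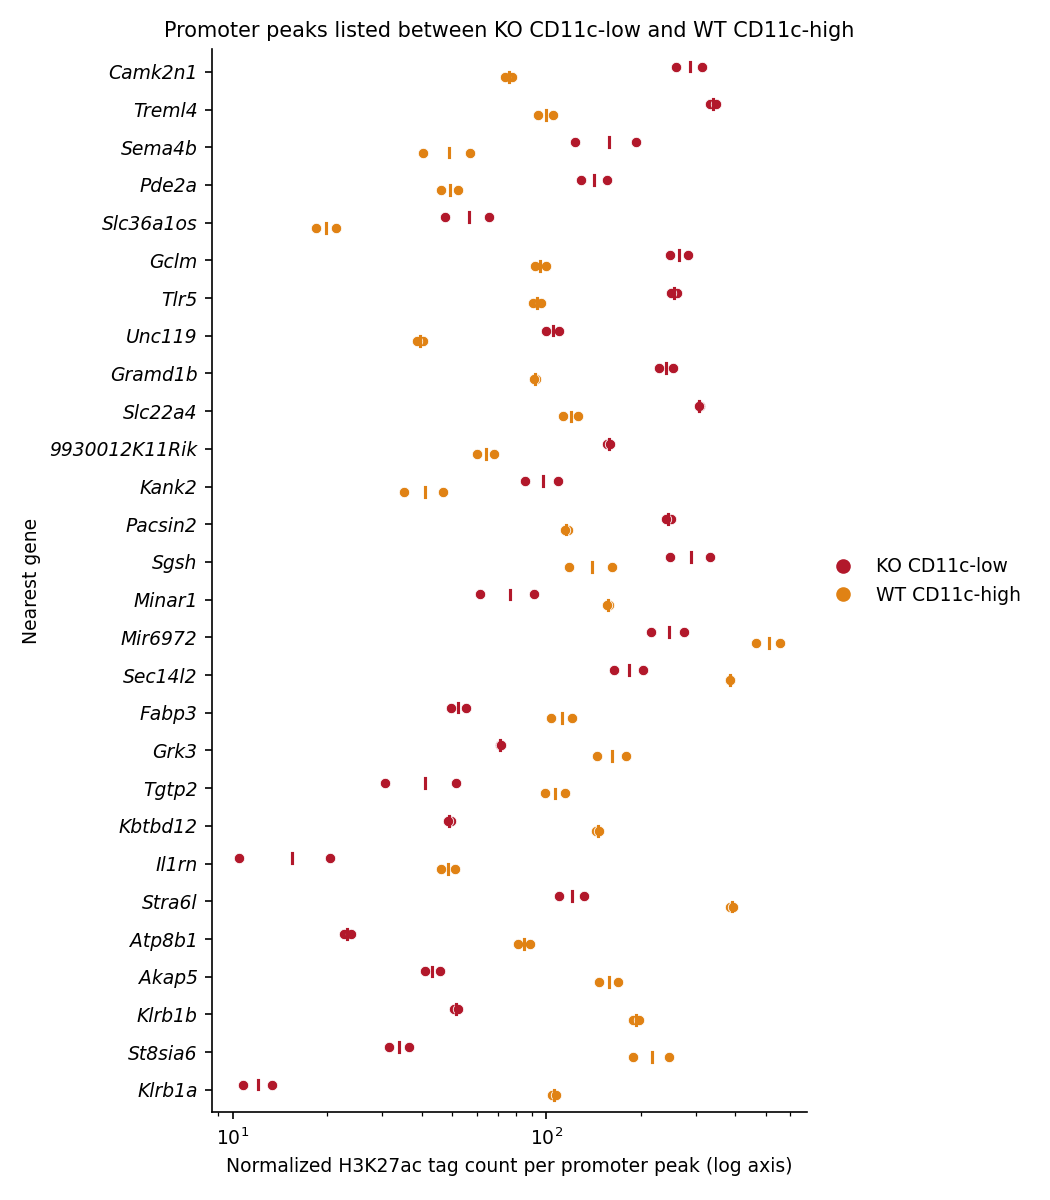
Normalized H3K27ac tag counts (log axis) at the 28 promoter peaks of the KO CD11c-low and WT CD11c-high comparison, 1 point per library with 2 libraries per group. The points of the groups are separate at all 28 peaks, as at 100% of the listed peaks, and the widest gap is at Klrb1a, with 10.8 and 13.3 tags in KO CD11c-low, against 105 and 107 in WT CD11c-high.

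WT CD11c-low cells of cuprizone-fed mice were set against WT basal cells. Diet, CD11c gate and label time change together here and cannot be told apart. Of 4886 listed peaks 257 were promoter peaks, of which 225 were higher and 32 lower against WT basal cells. All 257 passed limma's threshold, beside 100% of the listed peaks. Promoter peaks were higher in 87.5% of cases and all listed peaks in 88.7%, with 11.3% lower. With TMM factors over the listed peaks, which shifted the median log2 difference by -1.51, 27 promoter peaks were called higher and 32 lower. Centring a list of which 88.7% was higher lowers such calls by construction. In listed peaks alone, a shift common to all peaks of a library cannot be told apart from it and was not tested. Median log2 ratios of group means were 1.37 for higher promoter peaks and 1.65 for other higher peaks.

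The largest ratios among the higher promoters were at Fn1, Wbp1l, Pianp, Klrb1b, Fam20c and Bhlhe40. Fn1, which encodes fibronectin, had 74.5 and 48.6 tags in WT CD11c-low, against 1.64 and 2.17 in WT basal (log2 difference 4.40 ± 0.29, adjusted p = 7.6e-05). It rested on 3 WT basal reads, and the ratio of pooled reads was 31.6 with an exact 95% counting interval of 10.6 to 155. Wbp1l, a WW domain binding protein, had 118.5 and 95.5 tags in WT CD11c-low, against 3.29 and 6.51 in WT basal, at a start 24295 bp downstream of its first. Fam20c, the Golgi kinase of secreted proteins, had 248.7 and 223 tags in WT CD11c-low, against 11.5 and 18.4 in WT basal. Bhlhe40, a basic helix-loop-helix repressor that responds to stimulation in macrophages, had 757 and 636 tags in WT CD11c-low, against 67.4 and 33.6 in WT basal (log2 difference 3.84 ± 0.36). Klrb1b had 82.4 and 91.3 tags in WT CD11c-low, against 6.57 and 3.25 in WT basal, and Pianp, a ligand of the receptor PILR-alpha, had 188 and 147 in WT CD11c-low, against 9.86 and 10.8 in WT basal. WT basal counts at Fn1, Wbp1l and Klrb1b rest on a few reads, so these ratios carry a wide counting error.

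Of the 60 interferon-stimulated genes listed, 11 had a higher promoter peak in WT CD11c-low cells and 0 a lower one. Among genes with an RNA value 10 of 59 did (16.9%), beside 221 of all 24721 such genes (0.894%), which include genes not expressed in microglia. The lists were chosen with results known, so these shares are a description. The share over all genes, 0.894%, also stands beside those of the other lists in this comparison. The 11 genes were Ifi207, Ifi204, Oasl1, Zbp1, Ifit2, Cxcl10, Usp18, Sp100, Ifi209, Isg15 and Trim30a, with log2 ratios from 1.01 to 3.04 and a median of 1.63, beside 1.37 for all higher promoter peaks. Relative to the listed peaks (TMM factors), 6 of the 11 were above 0. Ifi207, an interferon-induced DNA sensor family gene whose window holds the response element printed above, had 453 and 388 tags in WT CD11c-low, against 62.4 and 38.0 in WT basal. Ifi204, of the same family, had 224 and 218 tags in WT CD11c-low, against 39.4 and 36.9 in WT basal, and Ifi204, Ifi207 and Ifi209 are close copies whose reads may be shared. Oasl1, an oligoadenylate synthetase-like protein, had 284 and 302 tags in WT CD11c-low, against 55.9 and 47.7 in WT basal.

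Of 32 disease-associated microglia genes, 3 had higher promoter peaks in WT CD11c-low cells (9.38%), and all 3 were above 0 relative to the listed peaks. Clec7a, the beta-glucan receptor dectin-1, had 815 and 816 tags in WT CD11c-low, against 115 and 120.3 in WT basal (log2 difference 2.78 ± 0.24). Fabp5, a fatty acid binding protein, had 120.03 and 112 tags in WT CD11c-low, against 21.4 and 22.8 in WT basal. Itgax had 651 and 677 tags in WT CD11c-low, against 202 and 157 in WT basal (log2 difference 1.89 ± 0.26), although these cells came from the low side of the CD11c gate. Since CD11c is the sorted protein, its gene is not independent of the groups.

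Lipid and NF-kB genes were also among the higher promoters under the authors' scaling. Of 36 lipid and cholesterol genes, 5 had higher promoter peaks (13.9%): Plin2, Srebf1, Dgat2, Plin3 and Nr1h3. Plin2, whose product coats lipid droplets, had 905 and 809 tags in WT CD11c-low, against 200.4 and 163 in WT basal (log2 difference 2.24 ± 0.25). Srebf1, a regulator of fatty acid synthesis, had 383 and 335 tags in WT CD11c-low, against 90.3 and 84.6 in WT basal, at a start 12110 bp downstream of its first. Dgat2, an enzyme of triglyceride synthesis, had 140.4 and 136.5 tags in WT CD11c-low, against 62.4 and 51.0 in WT basal. Relative to the listed peaks only Plin2 and Srebf1 of the 5 were above 0, with Dgat2 at -0.24. Of the 47 NF-kB, cytokine and chemokine genes, 6 had higher promoter peaks (12.8%), Tlr2, Cd274, Bcl3, Gadd45b, Nfkbiz and Tnfaip3, with ratios that put 0 of the 6 above 0 relative to the listed peaks. Tlr2, a receptor of bacterial lipoproteins, had 1832 and 1627 tags in WT CD11c-low, against 738 and 526 in WT basal, with a log2 difference of 1.47 ± 0.27, or -0.07 relative to the listed peaks. Cell cycle genes with higher promoter peaks were E2f1, Uhrf1 and Ccne1 of 67 (4.48%), with Ccne1 at -0.08 relative to the listed peaks. E2f1 had 259.7 and 236 tags in WT CD11c-low, against 67.4 and 62.9 in WT basal.

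The 32 lower promoter peaks in WT CD11c-low cells held few list genes. Mroh2a, a gene of unknown role in microglia, had 11.8 and 22.6 tags in WT CD11c-low, against 95.3 and 77.0 in WT basal (log2 difference -2.32 ± 0.34). Mctp1, a calcium-binding membrane protein, had 22.8 and 22.6 tags in WT CD11c-low, against 78.9 and 100.8 in WT basal, and Gp9, a platelet glycoprotein subunit, had 43.9 and 48.6 in WT CD11c-low, against 151 and 125 in WT basal. Klrd1, the CD94 chain of natural killer cell receptors, had 11.0 and 19.3 tags in WT CD11c-low, against 52.6 and 48.8 in WT basal. Klrd1 was the only gene of the 16-gene lymphocyte list with a promoter peak, and over all listed peaks 3 of the 16 genes had a higher and 1 a lower one. Among genes with an RNA value it was 1 of 15 (6.67%), beside 32 of all 24721 with a lower promoter peak (0.129%). The lymphocyte list stood at a median of 0.27 normalized RNA counts per kb in this comparison's RNA table, with 6 of its 15 measured genes at 0 and the highest at 54.9. The part of other cells in this peak was not tested.

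In WT CD11c-high cells, 376 of the 7520 listed peaks were promoter peaks, of which 301 were higher and 75 lower against WT basal cells. As above, diet, CD11c gate and label time change together and cannot be told apart. Limma called 375 of the 376, beside 7519 of all 7520 listed peaks (100% when rounded), so Utp14b was the only listed peak not called. Promoter peaks were higher in 80.1% of cases, and of all listed peaks 74.1% were called higher and 25.9% lower. With TMM factors, which shifted the median log2 difference by -1.45, 68 were called higher and 79 lower. Only 75 had been listed as lower, so some peaks listed as higher were called lower after centring.

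Stra6l had the largest ratio of all 684 entries, with 321 and 328 tags in WT CD11c-high, against 4.79 and 4.22 in WT basal (log2 difference 5.89 ± 0.24, adjusted p = 0.000158). WT basal held 3 and 4 reads there, so the size of the ratio is uncertain. Fam20c had 364 and 437 tags in WT CD11c-high, against 11.2 and 21.1 in WT basal, and Bhlhe40 had 1026 and 923 in WT CD11c-high, against 65.5 and 32.7 in WT basal. Pianp had 305 and 315 tags in WT CD11c-high, against 9.59 and 15.8 in WT basal, and Klrb1b had 157 and 165 in WT CD11c-high, against 9.59 and 3.16 in WT basal. Smim40, a small membrane protein gene, had 328 and 295 tags in WT CD11c-high, against 17.6 and 12.7 in WT basal. Both cuprizone comparisons share the WT basal libraries, so their values at a gene are not independent.

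Of the 60 interferon-stimulated genes, 9 had a higher and 0 a lower promoter peak in WT CD11c-high cells, with log2 ratios from 1.01 to 2.66 and a median of 1.46, beside 1.54 for all higher promoter peaks. Among genes with an RNA value 8 of 59 did (13.6%), beside 295 of all 24717 such genes (1.19%). The share over all genes, 1.19%, also stands beside those of the other lists in this comparison. Relative to the listed peaks (TMM factors), 5 of the 9 were above 0. Of the MHC list of 25, only Ciita, the master regulator of class II genes, had a promoter peak, with 74.7 and 59.2 tags in WT CD11c-high, against 28.8 and 16.9 in WT basal (log2 difference 1.55 ± 0.33). Among disease-associated genes Cybb, the gp91phox subunit of the phagocyte oxidase, had 185 and 179 tags in WT CD11c-high, against 16.0 and 27.4 in WT basal, at the window with 3 interferon response matches. Cd63, a tetraspanin of lysosomes, had 1013 and 951 tags in WT CD11c-high, against 310 and 272 in WT basal, and Fabp5 had 88.9 and 76.1 in WT CD11c-high, against 9.59 and 15.8 in WT basal. These 3 of the 32 genes (9.38%) were above 0 relative to the listed peaks.

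Of the 36 lipid genes, 6 had higher promoter peaks in WT CD11c-high cells (16.7%), of which 5 were above 0 relative to the listed peaks. Fabp3 had 86.2 and 100.7 tags in WT CD11c-high, against 12.8 and 8.44 in WT basal, and Plin2 had 1130 and 1127 in WT CD11c-high, against 198 and 159 in WT basal. Of the 47 NF-kB and cytokine genes 8 had higher promoter peaks (17.0%), and 4 of their 9 peaks were above 0 relative to the listed peaks. Il1rn carried 2 separate promoter peaks, 1 at its first start and 1 at a start 8431 bp downstream. At the first start Il1rn had 42.7 and 38.5 tags in WT CD11c-high, against 6.39 and 3.16 in WT basal, and at the downstream start 40.0 and 53.1 in WT CD11c-high, against 9.59 and 8.44 in WT basal. Gadd45b, a stress-inducible growth arrest gene, had 392 and 318 tags in WT CD11c-high, against 163 and 132 in WT basal, with a log2 difference of 1.26 ± 0.26, or -0.21 relative to the listed peaks. Without WT CD11c-high replicate 1 its adjusted p was 0.06. Atp6v0d2, a subunit of the proton pump that acidifies lysosomes, had 14.2 and 14.6 tags in WT CD11c-high, against 0 and 2.11 in WT basal. With 2 WT basal reads in all, the ratio of pooled reads was 11.4 with an exact 95% counting interval of 2.92 to 97.5. It was the only promoter peak of the 37-gene phagosome and lysosome list. Of 67 cell cycle genes, E2f1, Uhrf1, Ccne1 and E2f8 had higher promoter peaks (5.97%), and 3 of the 4 were above 0 relative to the listed peaks.

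Lower promoters in WT CD11c-high cells included Gp9, with 7.11 and 9.23 tags in WT CD11c-high, against 147 and 121 in WT basal (log2 difference -3.88 ± 0.26). Mroh2a had 4.44 and 11.5 tags in WT CD11c-high, against 92.7 and 74.9 in WT basal, and Sema6d, a guidance ligand, had 15.1 and 14.6 in WT CD11c-high, against 142 and 122 in WT basal. Tbx19, a T-box factor, had 8.00 and 13.1 tags in WT CD11c-high, against 105 and 86.5 in WT basal. Slc2a5, a fructose transporter used as a homeostatic microglia marker, had 405 and 426 tags in WT CD11c-high, against 1032 and 794 in WT basal (log2 difference -1.12 ± 0.26). Its adjusted p was 0.0661 without WT CD11c-high replicate 1 and 0.0541 without replicate 2. Slc2a5 was the only gene of the 33-gene homeostatic list with a promoter peak in this comparison. Among genes with an RNA value this was 1 of 32 (3.12%), beside 74 of all 24717 with a lower promoter peak (0.299%). Over all listed peaks 7 of the 33 genes had a higher and 13 a lower one. Pecam1, an endothelial adhesion gene also made by myeloid cells, had 56.0 and 32.3 tags in WT CD11c-high, against 157 and 141 in WT basal. It was the only promoter peak of the 12-gene endothelial list (8.33%, beside the same 0.299%), whose RNA median was 6.91 normalized counts per kb with 0 of 12 genes at 0. Over all listed peaks, 4 of the 12 endothelial genes had a higher and 3 a lower one. Whether endothelial cells took part in that difference was not tested.

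**Figure D3:**
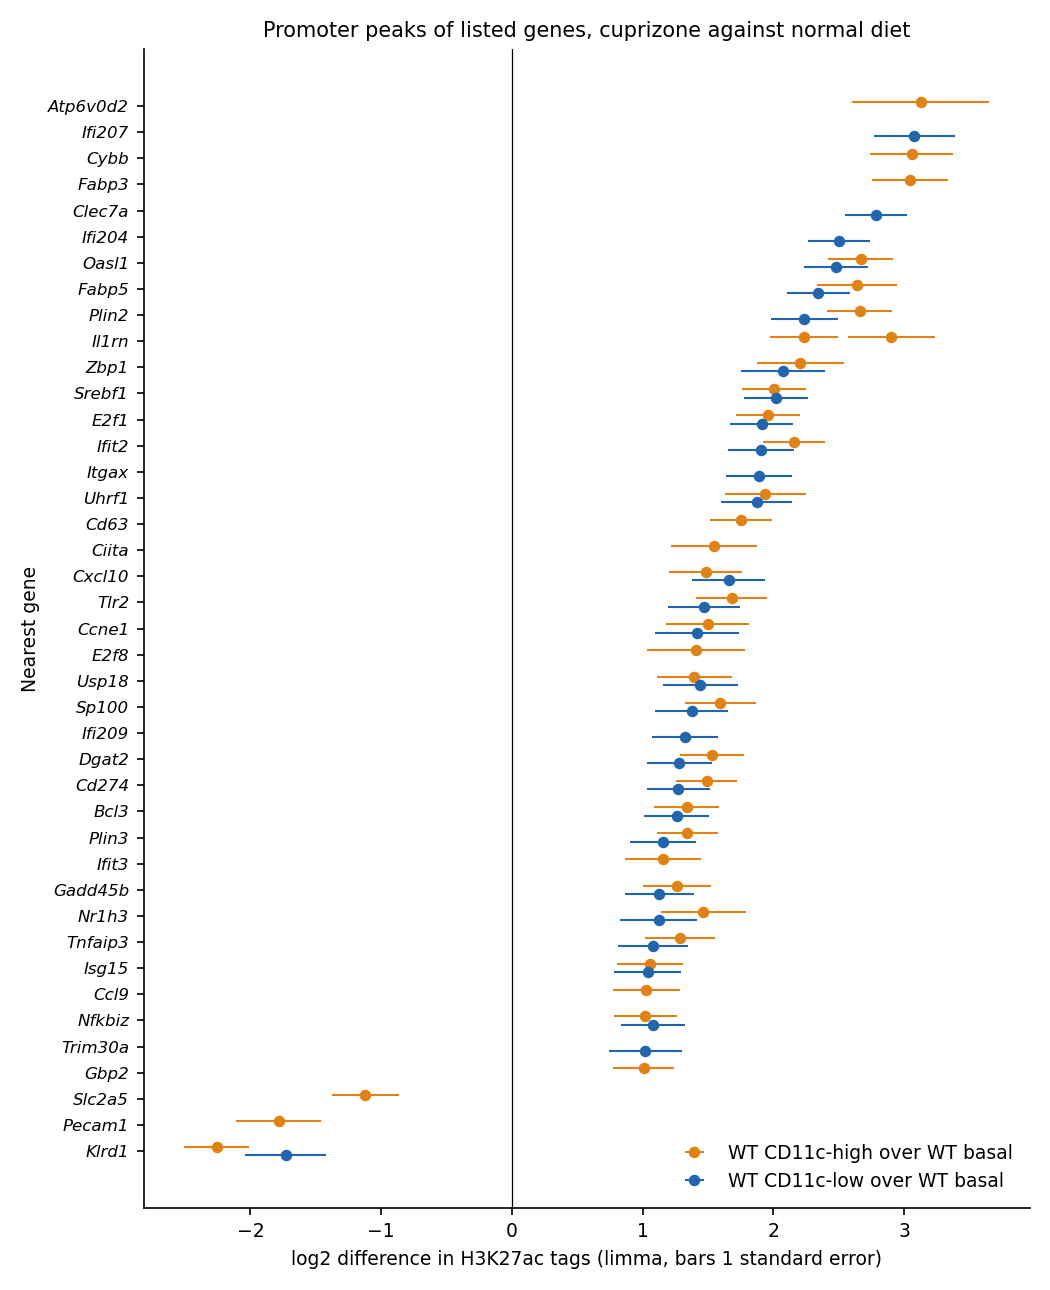
Log2 differences in H3K27ac tags (limma, bars 1 SE) at promoter peaks of genes from the lists, for WT CD11c-high over WT basal and WT CD11c-low over WT basal, with 2 libraries per group. All genes but Slc2a5, Pecam1 and Klrd1 lie above 0 under the authors' scaling, and a gene without a point for 1 gate had no listed promoter peak there.

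The CD11c gates were compared directly within WT cuprizone mice. Of 449 listed peaks 15 were promoter peaks, 6 higher and 9 lower in WT CD11c-high than in WT CD11c-low cells, beside 241 higher (53.7%) and 208 lower (46.3%) over all listed peaks. All 15 passed limma's threshold, beside 100% of the listed peaks, and TMM factors, which shifted the median log2 difference by -0.25, gave the same split of 6 and 9. None of the gene lists had a member with a promoter peak between the gates.

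The higher promoters in WT CD11c-high cells were those of Klrb1a, Stra6l, Hal, Zc2hc1a, AW822252 and St8sia6. Klrb1a had 108 and 111 tags in WT CD11c-high, against 26.5 and 38.4 in WT CD11c-low (log2 difference 1.75 ± 0.22, adjusted p = 0.000276). Stra6l had 398 and 407 tags in WT CD11c-high, against 142 and 145 in WT CD11c-low, and Hal, the enzyme that breaks down histidine, had 199 and 184 in WT CD11c-high, against 75.8 and 79.9 in WT CD11c-low. St8sia6 had 195 and 254 tags in WT CD11c-high, against 86.2 and 112 in WT CD11c-low. The St8sia6 libraries spread more within each gate than those of Stra6l, and the gates did not overlap, as in 100% of the listed peaks of this comparison.

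The lower promoters included those of Myo18b, Gm3264, Camk2n1, Tlr5, Chst8, Grap, Usp6nl and Spns3. Myo18b had 12.1 and 16.2 tags in WT CD11c-high, against 61.6 and 62.7 in WT CD11c-low (log2 difference -2.07 ± 0.20, adjusted p = 0.000251). Camk2n1 had 50.7 and 49.6 tags in WT CD11c-high, against 152 and 127 in WT CD11c-low, and Tlr5 had 71.7 and 90.7 in WT CD11c-high, against 176 and 234 in WT CD11c-low. Gm3264 belongs to a family of near-identical copies, so its tags, 38.6 and 42.9 in WT CD11c-high, against 115 and 117 in WT CD11c-low, may come from several loci. The difference at Usp6nl had an adjusted p of 0.0669 without WT CD11c-low replicate 2.

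Of the 449 genes, 230 had promoter peaks in 1 comparison, 209 in 2, 9 in 3 and 1 in 4. The comparisons share libraries, so a gene listed in several is not seen independently each time. Klrb1b was listed in 4, and the 9 others were Gm15413, Gm3264, Klrb1a, Mir6972, Sec14l2, St8sia6, Stra6l, Tgtp2 and Tlr5. Putting reads on a common scale of mean depth allowed 3 of 66 regions with matching coordinates to be followed through all 4 groups. At Klrb1a the values were 9.99 and 12.4 for KO CD11c-low, 97.0 and 99.4 for WT CD11c-high, 23.8 and 34.5 for WT CD11c-low and 1.78 and 9.40 for WT basal. At St8sia6 they were 34.0 and 29.2 for KO CD11c-low, 175 and 228 for WT CD11c-high, 77.4 and 100.7 for WT CD11c-low and 24.9 and 24.7 for WT basal. At Stra6l they were 101.9 and 122 for KO CD11c-low, 358 and 366 for WT CD11c-high, 127.5 and 129.8 for WT CD11c-low and 5.34 and 4.70 for WT basal. At all 3 the means ran in the order WT CD11c-high, WT CD11c-low, KO CD11c-low and WT basal, from high to low, with the KO CD11c-low and WT basal libraries close to each other at Klrb1a and St8sia6. Each was listed for WT CD11c-high against every other group, so the first place of WT CD11c-high follows from that listing. The KO CD11c-low values of Stra6l lay just under those of WT CD11c-low. None of these 3 promoters was listed for KO CD11c-low against WT CD11c-low, and that difference was not tested.

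Other promoters could be followed in 3 groups on the same scale. Each of those given here was listed for a single group against the others, so which group stands apart follows from the listing. Gclm was at 262 and 229.9 for KO CD11c-low, 85.2 and 92.5 for WT CD11c-high and 99.5 and 106 for WT CD11c-low, so KO cells were above both WT gates. Myo18b was at 16.0 and 9.73 for KO CD11c-low, 10.9 and 14.6 for WT CD11c-high and 55.3 and 56.3 for WT CD11c-low, and here only WT CD11c-low cells were high. Hal was at 178 and 165 for WT CD11c-high, 68.0 and 71.7 for WT CD11c-low and 10.7 and 7.05 for WT basal. Gp9 ran the other way, at 7.92 and 10.3 for WT CD11c-high, 47.6 and 52.6 for WT CD11c-low and 164 and 135 for WT basal.

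**Figure D4:**
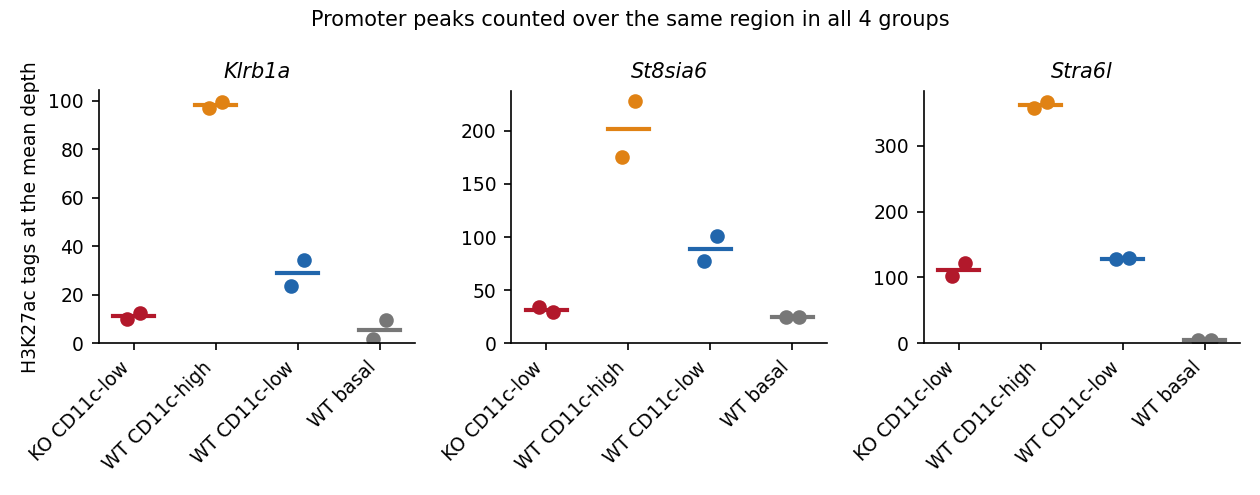
H3K27ac reads at mean library depth at the 3 promoter regions listed with the same coordinates for all 4 groups, with 1 point per library and 2 libraries per group. Klrb1a, St8sia6 and Stra6l were highest in WT CD11c-high cells, at 97.0 and 99.4, 175 and 228, and 358 and 366. Each was listed for WT CD11c-high against every other group, which fixes that place.

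Of promoter peaks with a start found, 8 of 8, 27 of 28, 233 of 255, 338 of 374 and 15 of 15 covered it, in the order of comparisons above. Some other listed peaks covered a start but carried another annotation, because the label follows the peak centre. Outside the promoter label, 17 of 263, 47 of 877, 330 of 4615, 524 of 7119 and 13 of 431 listed peaks covered an annotated start of the gene nearest to them, in the order of comparisons above. The class II genes H2-Aa, H2-Eb1 and H2-Ab1, which present peptides to CD4 T cells, were in this set. H2-Aa, annotated as intron, had 51.7 and 49.5 tags in KO CD11c-low, against 179 and 165 in WT CD11c-high. The same H2-Aa region had 149 and 138 tags in WT CD11c-high, against 17.6 and 14.8 in WT basal. Between the WT gates H2-Aa had 185 and 171 tags in CD11c-high, against 72.9 and 93.0 in CD11c-low. H2-Eb1 had 20.5 and 8.57 tags in KO CD11c-low, against 68.3 and 73.8 in WT CD11c-high. Between the WT gates the same H2-Eb1 region had 70.6 and 76.3 tags in CD11c-high, against 30.3 and 24.3 in CD11c-low. Ikbke, a kinase of interferon signalling, had 249.7 and 233 tags in KO CD11c-low, against 586 and 495 in WT CD11c-high. In the other comparison with a listed peak over its start, Ikbke had 470 and 394 tags in WT CD11c-high, against 20.8 and 13.7 in WT basal. Itgax in WT CD11c-high was annotated as exon, with 1801 and 1755 tags, against 486 and 399 in WT basal. The growth factor Csf1 had 947 and 896 tags in WT CD11c-high, against 246 and 177 in WT basal, and 699.8 and 649 in WT CD11c-low, against 243 and 178 in WT basal. No promoter peak was listed for Prmt1 or Cx3cr1 in any comparison.

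The makeup of promoter peaks is given beside that of other listed peaks, with no test. Their median GC content was 52.6% among those higher in WT CD11c-low than in WT basal, against 46.9% for other listed peaks, and 32.4% had a CpG ratio of at least 0.6, against 2.94%. In the WT CD11c-high comparison the higher promoter peaks had 53.4% GC, against 46.6%, and 35.5% were CpG-rich, against 2.88%. Of those higher in WT CD11c-low, 167 of 225 had been called as peaks in both groups (74.2%), against 57.9% of all listed higher peaks, and 28 had been called in WT basal only although the tags were higher in WT CD11c-low. Median width was 1921 bp for higher promoter peaks in WT CD11c-low and 1603 bp for the other higher peaks. Over all entries, replicates differed by a median of 0.14 log2 units in the first-named group of a comparison and 0.36 in the second-named group, which is WT basal in most entries.

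**Figure D5:**
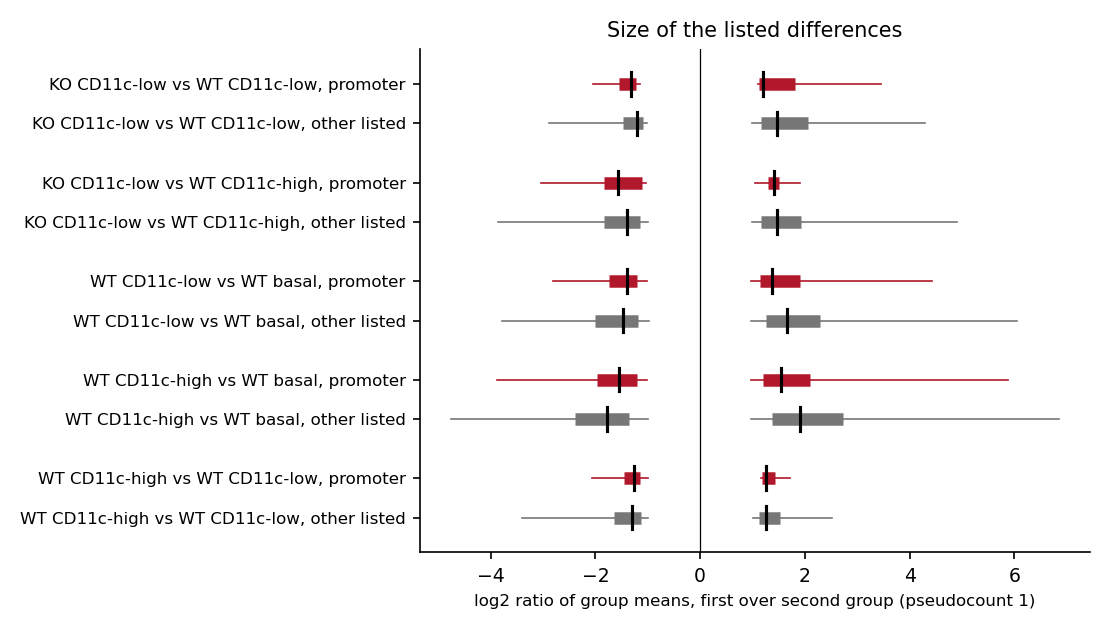
Log2 ratios of group means (pseudocount 1) for promoter peaks and other listed peaks in each comparison, with the median as a black line, the middle 50% as a bar and the range as a thin line. In WT CD11c-low over WT basal the medians are 1.37 for higher promoter peaks and 1.65 for the others.

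Of the 680 promoter entries with a curated start found, 100 lay at a start over 500 bp downstream of the first start of their gene, and 71 of 684 (10.4%) had a start of another gene on the opposite strand within 1 kb. Such pairs share a promoter region, as at Sgsh and Slc26a11, and the tags cannot be assigned to 1 of the genes. A microRNA gene was nearest in 19 entries of 11 genes. Mir212 had 145 and 134 tags in WT CD11c-low, against 73.9 and 51.0 in WT basal, and 135 and 112 in WT CD11c-high, against 71.9 and 49.6 in WT basal. The tags of such a peak do not measure the microRNA.

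RNA levels of the nearest genes were taken from the authors' mean over the libraries of a comparison, per kb of transcript, so they give a level and no difference between groups. The paper's methods describe duplicate removal for ChIP-seq and RNA-seq together. The highest value per table lay between 912.6 and 984.2 normalized counts per kb. Whether high levels were compressed was not tested. In the WT CD11c-low and WT basal table, genes nearest to a higher promoter peak had a median of 26.4 normalized counts per kb over 220 genes, those nearest to another higher peak 41.0 over 2459 genes, and all 24721 genes 2.27. Genes nearest to a lower promoter peak had a median of 8.68 over 32 genes. In the WT CD11c-high and WT basal table the medians were 18.1 for 295 genes at higher promoter peaks, 29.3 for those at other higher peaks and 12.8 for 74 genes at lower promoter peaks. Promoter peaks of KO CD11c-low against WT CD11c-low lay at genes with 86.9 (Il18bp), 87.2 (Gclm), 63.1 (Pacsin1), 52.6 (Grk3), 38.8 (Klrb1b), 13.6 (Myo18b), 6.79 (Syne1) and 1.33 (Gm15413) normalized counts per kb. The largest H3K27ac ratio, at Stra6l, lay at a gene of 7.43, near the 58.2 percentile of all genes in its table. Gp9, with the largest drop of the named promoters in WT CD11c-high, had 98.5 and ranked at the 91.0 percentile. These are levels in RNA libraries that are not among the 19 samples.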

How the data were processed

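H3K27ac was measured by ChIP-seq with input libraries. Per the labels and the methods, reads were mapped with Bowtie2, checked with FastQC 0.11.9 and stripped of duplicate reads by SAMtools 0.1.19. HOMER called, merged and counted peaks and ran DESeq2 on them. The authors deposited, for each comparison, the listed peaks with a signal per library, a normalized tag count scaled within the comparison, and a peak score. Their own fold changes and p-values in the peak and RNA tables were not used. The coordinates are mouse although a human build is also named, and 675 of 680 promoter entries lay within 100 bp of their stated distance from a GRCm38.p6 start (99.3%), so mm10 was used. Of the deposited RNA values only the authors' mean normalized count per gene was used, divided by transcript length, and 19 per-library columns matched no sample of the series and were not used. One deposited gene name was not a symbol, and its RefSeq symbol was used.

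Every deposited signal value was a whole number of times what 1 read was worth in that library (100%), within a tolerance in reads of 0.006 divided by that worth plus 0.003. These whole reads gave the relative depths. The absolute totals of the libraries were not given in the sources used here. Listed peaks of each comparison were fitted with limma 3.58.1 on log2(tag count + 1), with the p-value two-sided and adjusted by Benjamini-Hochberg over all listed peaks at a threshold of 0.05. An exact permutation test of 2 against 2 libraries cannot go below 0.333. Alternatives were a pseudocount of 5, edgeR 4.0.16 and DESeq2 1.42.0 on the recovered reads, TMM factors, a stricter ratio, a minimum mean of 50 tags, a distance rule of 500 bp, a replicate block and leaving out each library. The scripts were tested on simulated data. Replicate numbers were not taken to pair the samples, since the labels link no same-numbered libraries. Python 3.11.15 and R 4.3.3 were used.

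Promoter peaks, gene lists and alternatives were chosen with earlier results of these data known. Named were, per comparison and direction, up to 6 promoter peaks with the largest ratio of group means, 50 or more tags on average in the higher group and libraries that did not overlap, all peaks of a direction with 12 or fewer, up to 3 members of each gene list by smallest limma p, promoter peaks of Ikbke, Gadd45b, Irf1, Csf1, Itgax, H2-Eb1, H2-Ab1, H2-Aa, Prmt1 and Cx3cr1, and genes listed in 3 or more comparisons. Other genes are named within a count or a list of members, and those followed on the common scale, Utp14b and Mir212 were chosen after their values were seen. A promoter peak that the rule would name between the WT gates is not reported here.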

Additional observations from a re-analysis of the deposited data

Results flagged for a closer look

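At 4 promoters the difference from WT basal cells was larger in CD11c-high than in CD11c-low cells of cuprizone-fed mice. Both differences are taken against the same WT basal libraries, which cancel. What remains is the difference between the gates themselves, for which these peaks had been listed. It is given as a description with no test. The difference from WT basal in CD11c-high exceeded that in CD11c-low by 1.75 log2 units at Klrb1a, 1.48 at Stra6l, 1.29 at Hal and 1.17 at St8sia6. At all 4 both WT CD11c-high libraries were above both WT CD11c-low libraries, as groups did not overlap in 100% of the peaks listed between the gates.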

How the results depend on the processing

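Comparisons are named here by the first group and its reference. A scaling over the listed peaks alone lowered the calls. Under TMM factors 5 promoter peaks passed in KO CD11c-low against WT CD11c-low and 59 in WT CD11c-low against WT basal. In WT CD11c-high against WT basal 147 passed, among them peaks listed as higher but called lower. DESeq2 with its own size factors gave 4, 16 (KO CD11c-low against WT CD11c-high), 83 and 143. An absolute log2 ratio of at least 1.5 left 2, 12, 110 and 197, and 2 between the WT gates. Taking every listed peak within 500 bp of a start as a promoter gave 14 for KO CD11c-low against WT CD11c-low and 46 for KO CD11c-low against WT CD11c-high. TMM factors centre lists of changed peaks, which lowers the calls. In listed peaks alone this cannot be told apart from a shift common to all peaks of a library. DESeq2's own size factors were computed over the same listed peaks and centre them too. The stricter ratio removes smaller differences by definition, and the distance rule counts another set of peaks. No other cause was tested.

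TMM factors were computed over peaks listed as changed and shifted the median log2 difference by -1.27, -0.42, -1.51, -1.45 and -0.25 in the order of the report, so peaks with smaller differences fall below 0 by construction and their loss is no test of stability. Of 115 named results 83 kept their direction and call, 21 lost the call and 11 fell below 0. These were Gm15413 (-0.18), Il18bp (-0.13) and Gclm (-0.028) in KO CD11c-low against WT CD11c-low, Gadd45b (-0.40), Bcl3 (-0.27), Cd274 (-0.26), Dgat2 (-0.24), Tgtp2 (-0.10), Ccne1 (-0.078) and Tlr2 (-0.065) in WT CD11c-low against WT basal, and Gadd45b (-0.21) in WT CD11c-high against WT basal. A pseudocount of 5 kept all 115. On the recovered reads with depth as library size, edgeR and DESeq2 each called 8, 28, 257, 376 and 15 promoter peaks. A minimum mean of 50 tags gave 7, 27, 232, 325 and 15, and autosomes only 8, 28, 253, 369 and 14. Deviations of same-numbered libraries correlated between -0.082 and 0.136 over all listed peaks and between -0.59 and 0.446 over the promoter peaks of a comparison. With the replicate block, the pairing by number, 8, 28, 257, 376 and 15 promoter peaks passed, against 8, 28, 257, 375 and 15 without it. Leaving out 1 library gave 6 to 8, 26 to 28, 177 to 257, 266 to 372 and 14 to 15, in the order of the report. With 2 libraries a group the lone sample is assumed to vary like the others. Listed regions only were available, so unlisted promoters give no value.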
